A study of Mus musculus with 15 samples.

Results

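Bivalent start sites are transcription start sites that carry H3K4me3, a histone mark of active promoters, together with H3K27me3, a histone mark of repressed ones. Here they were chosen by measured values: H3K27me3 of 1 RPKM or more within 1 kb of the listed position at both 100000 and 10000 cells, and a 1 kb window inside which, or within 500 bp of which, the site lay, with H3K4me3 of 4 RPKM or more at 10000 cells and 2 RPKM or more at 5000 cells. RPKM is the read density scaled to depth and length. The rule found 792 of 28373 rows of the gene table, which stand for 690 of 22035 genes and 707 distinct positions. Those 4 libraries chose the sites, so their levels are given as a description with no test.

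The cells were TT2, male wild-type mouse embryonic stem cells derived from the inner cell mass of a blastocyst (strain C57BL/6 x CBA), and were sorted to set cell numbers. All groups share that 1 line. Native ChIP-seq was done for H3K9me3 (1 library each at 1000000, 100000 and 10000 cells, and libraries a, b and c at 1000 cells), for H3K27me3 (1 library each at 1000, 10000 and 100000 cells), for H3K4me3 (1 library each at 5000, 10000 and 100000 cells) and for panH3, which is total histone H3 (libraries a and b at 1000 cells), beside 1 RNA library from 1000 cells after depletion of ribosomal RNA. Nothing in the labels states that lettered libraries stem from different cultures, and the spread behind each p-value may therefore be technical.

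H3K4me3 is laid down by the Trithorax-related MLL and SET1 complexes, and H3K27me3 by Polycomb repressive complex 2. In embryonic stem cells both are known to meet at CpG-rich promoters of genes that direct later development. Such genes are mostly silent or weakly transcribed there, and on differentiation many keep only 1 of both marks.

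The H3K27me3 column did not sit at the start site on both strands. Transcripts of 1 gene that shared their lower coordinate had identical H3K27me3 in 251 of 251 groups on the plus strand and in 347 of 347 on the minus strand. Transcripts that shared their higher coordinate had identical H3K27me3 in 0 of 372 groups on the plus strand and 0 of 231 on the minus strand. The lower coordinate is the start site on the plus strand and the far end of the transcript on the minus strand. Cdkn2a, a minus-strand gene that encodes inhibitors of the cell cycle, shows it. Its transcripts starting at 88928096 and 88940520 on chromosome 4 (mm9) end at the same base and both listed 1.69, 2.72 and 2.67 RPKM of H3K27me3 at 1000, 10000 and 100000 cells.

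The 2 kb bins, a separate table, gave the same picture. The bin at the start site held a median H3K27me3 of 2.26 RPKM at 100000 cells for plus-strand members, with 38 of 41 bins at 1 RPKM or more, and of 1.18 RPKM for minus-strand members, with 4 of 6 bins. The bin at the other end of the transcript held 1.88 RPKM for minus-strand members, with 12 of 13 bins at 1 RPKM or more, and 0.48 RPKM for plus-strand members, with 7 of 44. At plus-strand start sites with H3K4me3 only, 15 of 365 bins reached 1 RPKM. H3K4me3 windows were centred within 50 bp of a listed start site in 61.7% of plus-strand and 62.2% of minus-strand pairs of a window and a start site, so H3K4me3 was measured at the start on both strands.

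The 624 plus-strand members (534 genes, 546 positions, of 14364 plus-strand rows) therefore hold both marks at the start site, and the levels, families and genes below are theirs. The 168 minus-strand members (156 genes) hold H3K4me3 at the start and H3K27me3 at the far end. Their transcripts were short, with a median length of 6440 bp, and 22 of them were 2000 bp or shorter. Bivalent rows made up 8.83% of plus-strand rows with a qualifying H3K4me3 window and 2.39% of minus-strand ones. The table does not give H3K27me3 at the start of minus-strand genes, so of these only RNA and divergent pairs are described.

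Promoter letters are shown for genes taken in order of their values from 3 groups. The groups had strong marks, high RNA, or H3K27me3 with no qualifying H3K4me3 window. Genes without a promoter entry, or on a chromosome barred from the choice, were passed over, among them Rasgef1c, Sfrp1 and Jdp2. Base composition took no part in the choice. Arpc5 (subunit of the Arp2/3 actin-nucleating complex), Tnfrsf11a (RANK, a receptor of osteoclast formation) and Tbc1d9 (a Rab GTPase-activating protein family member) come from the bivalent start sites with the highest geometric mean of both marks, and Enox1 (a cell-surface oxidase) and Gm2694 (a gene with no known function) from those with the highest RNA. Hes7 (a segmentation clock repressor) and Tcfap2b (AP-2 beta, a neural crest factor) had H3K27me3 and no qualifying H3K4me3 window. The sequences are RefSeq entries on GRCm38.p6, all on the plus strand, from 250 bases before to 50 bases after the RefSeq start, at chr1:152766292-152766591, chr1:105780473-105780772, chr8:83165102-83165401, chr14:77156513-77156812, chr8:87472866-87473165, chr11:69120203-69120502 and chr1:19211804-19212103 in that order. Capitals mark CG dinucleotides.
Arpc5: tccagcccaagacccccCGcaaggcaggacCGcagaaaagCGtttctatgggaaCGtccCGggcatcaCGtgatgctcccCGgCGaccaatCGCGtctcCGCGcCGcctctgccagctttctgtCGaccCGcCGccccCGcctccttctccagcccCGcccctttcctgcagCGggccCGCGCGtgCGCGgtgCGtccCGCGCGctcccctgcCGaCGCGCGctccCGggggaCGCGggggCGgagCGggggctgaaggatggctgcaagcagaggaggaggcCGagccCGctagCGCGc
Tnfrsf11a: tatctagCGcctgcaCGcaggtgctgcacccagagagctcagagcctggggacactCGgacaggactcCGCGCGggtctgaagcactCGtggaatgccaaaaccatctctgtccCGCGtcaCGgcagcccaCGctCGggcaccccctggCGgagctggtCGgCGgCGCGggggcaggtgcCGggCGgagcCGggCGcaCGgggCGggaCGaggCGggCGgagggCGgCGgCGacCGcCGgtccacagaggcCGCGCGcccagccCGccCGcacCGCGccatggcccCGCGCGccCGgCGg
Tbc1d9: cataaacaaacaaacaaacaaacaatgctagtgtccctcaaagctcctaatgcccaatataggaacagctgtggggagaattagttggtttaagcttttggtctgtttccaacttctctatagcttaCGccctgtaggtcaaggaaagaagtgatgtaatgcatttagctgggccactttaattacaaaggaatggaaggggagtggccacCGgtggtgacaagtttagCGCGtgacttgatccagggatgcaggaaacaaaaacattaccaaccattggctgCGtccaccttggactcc
Enox1: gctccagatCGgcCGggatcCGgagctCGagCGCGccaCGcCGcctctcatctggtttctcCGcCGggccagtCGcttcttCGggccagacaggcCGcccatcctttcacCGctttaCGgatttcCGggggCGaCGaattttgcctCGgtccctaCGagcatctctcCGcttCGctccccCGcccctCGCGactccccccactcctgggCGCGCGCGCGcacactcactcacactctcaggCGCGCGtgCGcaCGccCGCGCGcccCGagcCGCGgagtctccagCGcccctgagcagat
Gm2694: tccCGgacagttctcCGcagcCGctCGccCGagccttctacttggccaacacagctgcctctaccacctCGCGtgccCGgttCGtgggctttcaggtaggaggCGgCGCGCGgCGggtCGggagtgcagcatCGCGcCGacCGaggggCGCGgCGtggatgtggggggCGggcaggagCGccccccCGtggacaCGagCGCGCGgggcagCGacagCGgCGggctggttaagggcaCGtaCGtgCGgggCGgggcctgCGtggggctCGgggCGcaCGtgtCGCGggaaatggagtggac
Hes7: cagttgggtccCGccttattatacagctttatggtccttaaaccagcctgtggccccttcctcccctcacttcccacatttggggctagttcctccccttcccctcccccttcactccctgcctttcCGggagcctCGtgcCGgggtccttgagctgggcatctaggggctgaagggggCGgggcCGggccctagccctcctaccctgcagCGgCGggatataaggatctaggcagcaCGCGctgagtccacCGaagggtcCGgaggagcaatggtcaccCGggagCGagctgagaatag
Tcfap2b: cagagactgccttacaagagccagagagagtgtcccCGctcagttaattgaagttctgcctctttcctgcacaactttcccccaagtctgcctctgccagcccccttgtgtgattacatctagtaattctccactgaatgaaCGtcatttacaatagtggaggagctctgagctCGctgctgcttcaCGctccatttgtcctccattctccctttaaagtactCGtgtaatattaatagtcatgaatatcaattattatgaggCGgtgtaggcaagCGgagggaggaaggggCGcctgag

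CG dinucleotides numbered 41 in the Arpc5 entry, 43 in Tnfrsf11a, 42 in Enox1, 42 in Gm2694 and 5 in Tbc1d9. They numbered 14 in Hes7 and 8 in Tcfap2b, and the median over all 32851 entries of 300 bases was 7. With 7 entries this describes those genes and not their classes. The qualifying window of Tbc1d9 carried the symbol of another gene, Gm10645. TATAAA, the core of the TATA box, was found on either strand in 0 of the 7 entries and in 13.6% of all entries. CCAAT was found in Arpc5 and Tbc1d9 and in 37.4% of all entries, and GGGCGG, the core of the GC box, in all of the 7 but Tbc1d9 and Tcfap2b and in 35.7% of all entries. A match is a string of letters and no evidence of binding, and RefSeq's start can differ from the mm9 start in the gene table. Entries were found for 393 of the 534 genes (73.6%), too few to describe base composition over the whole set.

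At bivalent start sites H3K27me3 was about as high as where it stood alone, and H3K4me3 was intermediate between the other classes. The median H3K27me3 was 0.95, 1.77 and 1.62 RPKM at 1000, 10000 and 100000 cells, against 0.995, 1.74 and 1.54 RPKM at the 918 plus-strand start sites with H3K27me3 and no qualifying H3K4me3 window. The median H3K4me3 was 5.39, 10.3 and 3.25 RPKM at 5000, 10000 and 100000 cells, against 12.9, 28.1 and 5.12 RPKM at the 6262 start sites with H3K4me3 and under 1 RPKM of H3K27me3 in both libraries of the rule. Most of these libraries chose the sites. Both classes with H3K27me3 were cut at the same 1 RPKM, so their likeness at 10000 and 100000 cells is partly set by the rule. The 100000-cell library of H3K4me3 and the 1000-cell library of H3K27me3 took no part in the choice.

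In the H3K4me3 library that did not choose them, bivalent start sites lay well above sites with H3K27me3 only and, at 4 RPKM, close to the share over all rows with a window. H3K4me3 reached 4 RPKM at 100000 cells at 35.1% of bivalent start sites (219 of 624, exact Clopper-Pearson 95% interval 31.3 to 39.0%), against 0.436% of those with H3K27me3 only, 65.3% of those with H3K4me3 only and 33.1% of plus-strand rows with a window. It reached 2 RPKM at 84.0% of bivalent start sites, against 11.8% with H3K27me3 only, 91.7% with H3K4me3 only and 50.4% of plus-strand rows with a window. It reached 1 RPKM at 99.5% (621 of 624), against 53.3%, 99.2% and 62.7% in the same order. H3K27me3 reached 1 RPKM at 1000 cells at 43.8% of bivalent start sites (273 of 624, 39.8 to 47.7%), against 50.0% of those with H3K27me3 only, 0.0798% of those with H3K4me3 only and 5.95% of all plus-strand rows. Over all 792 members the shares were 35.0% for H3K4me3 and 48.4% for H3K27me3. Each group here is 1 library, so these intervals cover counting error only, and rows of 1 gene share its reads.

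**Figure D1:**
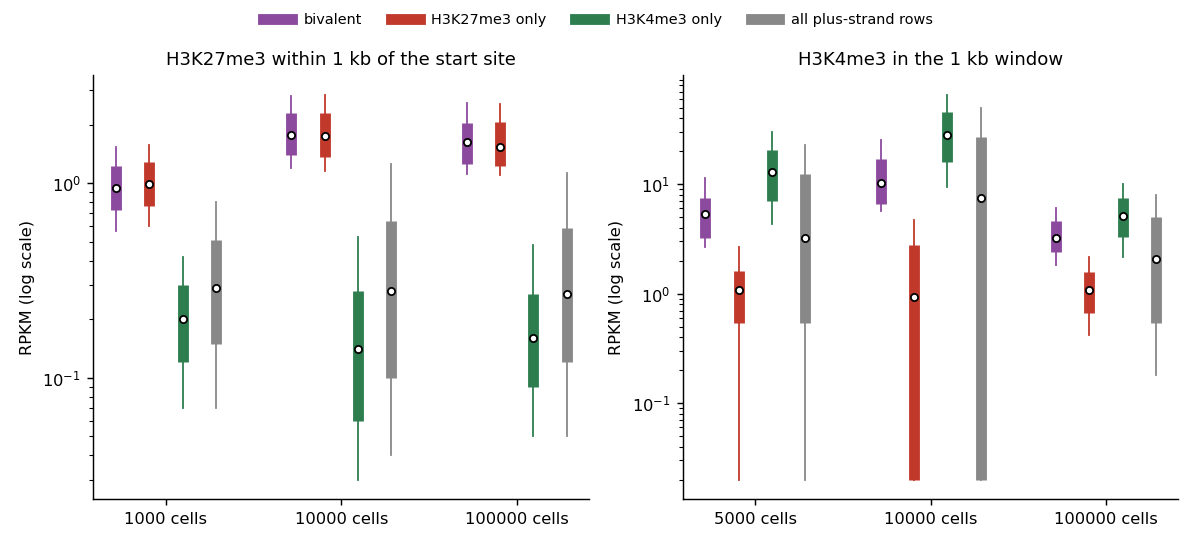
H3K27me3 (left) and H3K4me3 (right) in RPKM on a log scale at plus-strand start sites by class and cell number; points are medians, thick bars quartiles, thin lines the 10th to 90th percentile, cut at 0.02 RPKM where values are 0. Bivalent and H3K27me3-only start sites have H3K27me3 medians of 1.62 and 1.54 RPKM at 100000 cells, where the rule cut both classes at 1 RPKM. At 1000 cells, outside the rule, the medians are 0.95 and 0.995 RPKM. In H3K4me3 at 100000 cells bivalent start sites lie between the other classes (3.25 RPKM against 1.08 and 5.12 RPKM).

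Depth set how sharply the rule could cut. The threshold of 1 RPKM of H3K27me3 at 100000 cells was reached with 40 reads in 2 kb (95% Poisson interval 0.727 to 1.38 RPKM). The threshold of 4 RPKM of H3K4me3 at 10000 cells was reached with 5 reads (1.52 to 10.9 RPKM), and that of 2 RPKM at 5000 cells with 4 reads (0.587 to 5.52 RPKM), since those libraries held 1.07 and 1.86 M reads (M for 1000000). Members just inside were Dmrt1 (1.00 RPKM of H3K27me3 at 100000 cells), F3 (1.00 RPKM), Fabp3 (1.00 RPKM), Fbxl16 (1.00 RPKM) and Gadd45g (1.07 RPKM, with 1.00 RPKM at 10000 cells). Just outside were Doc2a, Gdpd5 and Mapk13 (0.99 RPKM each at 100000 cells) and Gng12 and Nes (0.99 RPKM each at 10000 cells). The H3K4me3 table holds no window above 49.21, 99.38 and 49.55 RPKM at 100000, 10000 and 5000 cells, so any stronger start sites are not analysed here.

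Libraries also stood apart by chromosome. Mean panH3 was 0.592 RPKM on chromosomes 1, 8 and 11, against 0.396 RPKM on the other autosomes. Those 3 chromosomes held 36.5% of bivalent start sites (228 of 624) and 17.7% of plus-strand rows, and 8.96% of their rows were bivalent, against 3.52% on the other autosomes. Both marks were then divided, on the autosomes but not on X and Y, by the relative panH3 level of the chromosome. After this 508 plus-strand rows met the rule, 117 of them on chromosomes 1, 8 and 11. Of the 624 members 495 met it still. RNA of 1 RPKM or more was found at 42.5% of members on chromosomes 1, 8 and 11 (36.0 to 49.2%) and at 36.2% of members on the other autosomes (31.5 to 41.2%). The X chromosome held 4 members among 677 plus-strand rows (0.591%), at a mean panH3 of 0.187 RPKM under the same fixed thresholds. The Y chromosome held 0 members among only 9 rows.

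The RNA library was that of embryonic stem cells. All 9 stem cell markers read above 1 RPKM, between 15.0 RPKM (Klf4) and 222 RPKM (Zfp42). Of 8 fibroblast and feeder cell markers 1 did, Thy1 at 1.79 RPKM, with Col3a1, Dcn, Lum and Postn listed at 0 and a sum of 2.29 RPKM over the list. Of 5 mesoderm markers 0 reached 1 RPKM, of 8 endoderm markers 1 (Dab2, 1.11 RPKM), of 5 trophoblast markers 1 (Tcfap2c, 4.26 RPKM) and of 5 neural markers 2 (Nes, 1.55 RPKM, and Tubb3, 25.7 RPKM). Tcfap2c, Tubb3, Eomes, Pax6 and Esrrb are themselves bivalent start sites.

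RNA from bivalent start sites was low and seldom listed at 0. The median was 0.63 RPKM, against 0.10 RPKM at start sites with H3K27me3 only, 6.59 RPKM at those with H3K4me3 only and 1.10 RPKM over all plus-strand rows. RNA reached 1 RPKM at 38.3% of bivalent start sites (239 of 624, 34.5 to 42.2%), against 11.2% (9.25 to 13.4%) with H3K27me3 only, 88.8% (88.0 to 89.6%) with H3K4me3 only and 51.1% over all. It was listed at 0 for 4.17% of bivalent start sites, against 21.8% with H3K27me3 only, 1.41% with H3K4me3 only and 20.2% over all. It was under 0.1 RPKM for 17.0%, against 49.1%, 3.48% and 29.9% in the same order. At the upper end, 34 bivalent start sites (5.45%) reached 10 RPKM. Counted once per gene, RNA reached 1 RPKM in 201 of 534 genes (37.6%), and over all 792 members in 37.1% of rows. The RNA column counts exons of the transcript, so reads of an overlapping transcript cannot be told apart from its own. Minus-strand members were close in RNA, with a median of 0.465 RPKM and 32.7% at 1 RPKM or more (55 of 168, 25.7 to 40.4%).

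In each band of H3K4me3, median RNA was lower at bivalent start sites than at sites with H3K4me3 only. The bands are wide and rest on few reads at the low end, and levels were not matched within them. With 4 to under 8 RPKM of H3K4me3 at 10000 cells, the median RNA was 0.32 RPKM at 206 bivalent start sites and 2.28 RPKM at 409 with H3K4me3 only. With 8 to under 16 RPKM it was 0.59 RPKM at 258 bivalent start sites and 3.75 RPKM at 1209 others, and with 16 to under 32 RPKM it was 1.28 RPKM at 133 and 5.62 RPKM at 1922. In the highest band the medians were 5.81 RPKM at 27 bivalent start sites and 10.6 RPKM at 2722 with H3K4me3 only. In that band 85.2% of bivalent start sites (66.3 to 95.8%) had RNA of 1 RPKM or more, against 93.2% (92.2 to 94.2%) of the others, and these intervals overlap. In the lowest band the shares were 24.8% (19 to 31.2%) and 72.1% (67.5 to 76.4%).

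Within bands of H3K27me3, bivalent start sites gave more RNA than sites with H3K27me3 only. With 1 to under 1.5 RPKM of H3K27me3 at 100000 cells, 44.2% of 258 bivalent start sites had RNA of 1 RPKM or more (38 to 50.5%), against 12.5% of 433 with H3K27me3 only (9.51 to 16%). With 2 to under 3 RPKM the shares were 28.5% of 165 (21.7 to 36.0%) and 9.59% of 219 (6.03 to 14.3%). Above 3 RPKM they were 30.4% of 23 (13.2 to 52.9%) and 7.32% of 41 (1.54 to 19.9%), where the intervals overlap. Median H3K4me3 of the bivalent start sites at 10000 cells was 11.2, 11.2, 9.38 and 10.3 RPKM from the lowest band of H3K27me3 to the highest.

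**Figure D2:**
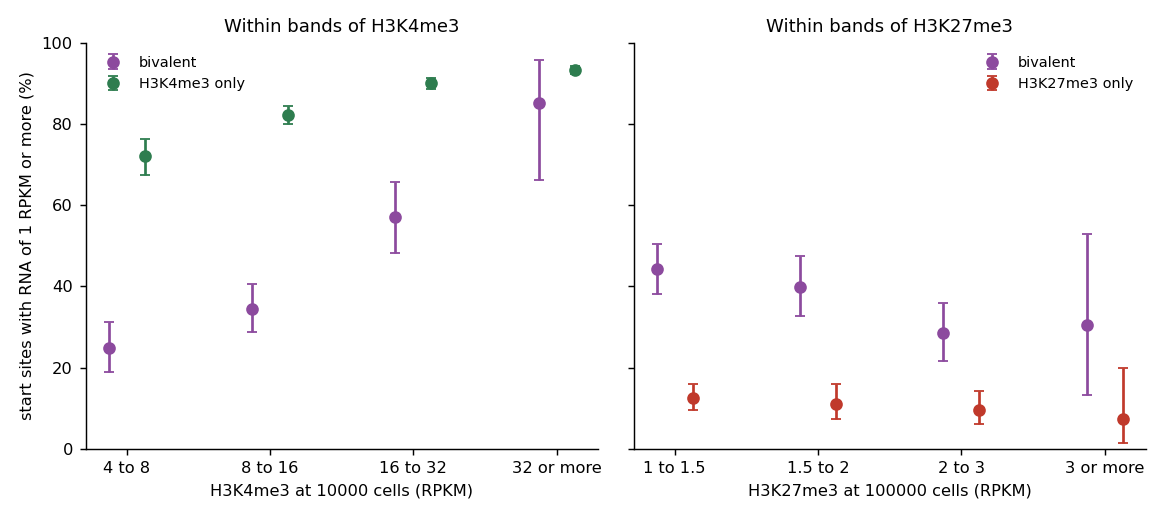
Share of plus-strand start sites with RNA of 1 RPKM or more (percent) within bands of H3K4me3 at 10000 cells (left) and of H3K27me3 at 100000 cells (right); bars are exact 95% Clopper-Pearson intervals, which cover counting error only. Bivalent start sites climb with H3K4me3 (24.8, 34.5, 57.1 and 85.2%) and stay below H3K4me3-only sites, and lie above H3K27me3-only sites in each band of H3K27me3.

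Across the 534 genes, RNA followed H3K4me3 more closely than H3K27me3. Spearman's rho between RNA and H3K4me3 was 0.36 at 10000 cells and 0.356 at 100000 cells, and between RNA and H3K27me3 at 100000 cells -0.211. Both marks were weakly opposed, with a rho of -0.203 between H3K27me3 at 100000 and H3K4me3 at 10000 cells. Genes are not independent replicates, the choice by both marks narrows their range, and the reads behind H3K4me3 are few. Bivalent genes were also long: the median transcript spanned 37200 bp, against 19500 bp with H3K27me3 only, 22400 bp with H3K4me3 only and 16400 bp over all plus-strand rows. Length was not particular to them, since the 180 rows with a qualifying H3K4me3 window and H3K27me3 over the threshold in 1 library had a median of 39000 bp.

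Single genes below are given with H3K27me3 at 1000, 10000 and 100000 cells and H3K4me3 at 5000, 10000 and 100000 cells, in that order, and positions are mm9. Arpc5 (chromosome 1, 154613665) had the highest geometric mean of both marks, from H3K4me3 of 24.8, 97.5 and 12.05 RPKM. Its H3K27me3 stood only just over the threshold, at 1.03, 1.23 and 1.05 RPKM, and its RNA was 19.8 RPKM. Rasgef1c (chromosome 11, 49715337), which encodes a guanine nucleotide exchange factor domain protein, was strong in both marks and nearly silent. Its H3K27me3 was 1.96, 3.28 and 2.96 RPKM, its H3K4me3 9.69, 28.1 and 3.73 RPKM and its RNA 0.37 RPKM. Sfrp1 (chromosome 8, 24521973), a secreted Wnt antagonist, combined H3K27me3 of 1.39, 2.26 and 2.01 RPKM and H3K4me3 of 15.1, 37.5 and 7.59 RPKM with RNA of 9.84 RPKM. Ikzf1 (Ikaros, a lymphoid zinc finger factor) held 1.18, 2.81 and 2.01 RPKM of H3K27me3 and 21.0, 36.6 and 8.25 RPKM of H3K4me3 at RNA of 0.66 RPKM. Among the 10 genes highest by this mean RNA thus ran from 0.37 RPKM (Rasgef1c) to 62.8 RPKM (Mt2, a metallothionein). The others were Jdp2 (6.15 RPKM of RNA), Tnfrsf11a (0.82 RPKM), Tbc1d9 (3.41 RPKM), Fam78b (1.02 RPKM) and the basement membrane collagen gene Col4a2 (0.94 RPKM).

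**Figure D3:**
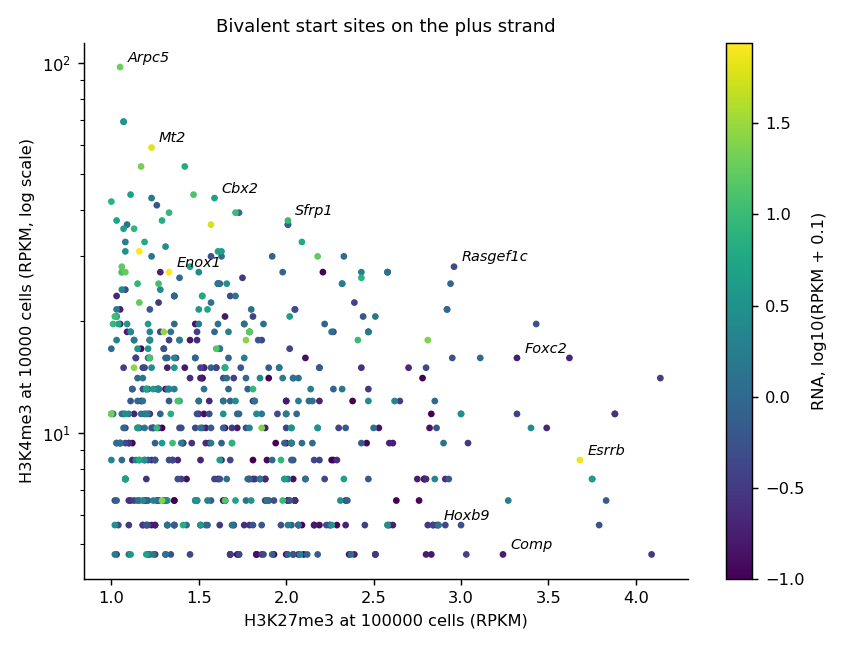
Each point is a plus-strand bivalent start site, placed by H3K27me3 at 100000 cells (RPKM) and H3K4me3 at 10000 cells (RPKM, log scale) and coloured by RNA as log10(RPKM + 0.1); levels along the bottom are steps of single reads. Arpc5 (97.5 RPKM of H3K4me3) and Mt2 lie high at weak H3K27me3, Rasgef1c is high in both marks, and Esrrb (73.8 RPKM of RNA) lies far to the right with H3K4me3 of 8.44 RPKM.

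Some bivalent start sites belonged to genes with high RNA over exons in the 1 RNA library. Whether that RNA began at the listed start site was not tested. Enox1 (chromosome 14, 77556625) had the highest RNA, 87.7 RPKM, beside H3K27me3 of 0.98, 2.16 and 1.33 RPKM and H3K4me3 of 11.3, 27.2 and 6.87 RPKM. Gm2694 (chromosome 8, 89996713) had 86.4 RPKM of RNA, with 0.84, 1.49 and 1.16 RPKM of H3K27me3 and 12.9, 30.9 and 4.40 RPKM of H3K4me3. Esrrb, a nuclear receptor of the pluripotency network, differed from both in the strength of its H3K27me3. At its start site on chromosome 12 (87762593) H3K27me3 was 1.72, 4.08 and 3.68 RPKM, H3K4me3 3.23, 8.44 and 3.67 RPKM and RNA 73.8 RPKM. The other start site of Esrrb in the table (87702065) held 0.45, 0.97 and 0.74 RPKM of H3K27me3 and 0, 0 and 0.66 RPKM of H3K4me3, so neither listed start site showed H3K4me3 without H3K27me3. Transcripts of 1 gene share most exons, and the RNA of that second transcript read 72.1 RPKM.

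The rest of the 12 highest by RNA were a mixed group. Mt2 read 62.8 RPKM, Hs6st3 (a heparan sulfate sulfotransferase) 58.8 RPKM and Odz4 (teneurin 4, a transmembrane protein of neurons) 30.6 RPKM. Rsrc1 read 27.5 RPKM, Tubb3 (the neuronal beta-tubulin) 25.7 RPKM, Spop (a ubiquitin ligase adaptor) 24.5 RPKM and Ddah1 24.1 RPKM. Gnas and Fgf4 followed with 23.7 and 21.1 RPKM. Their H3K27me3 at 100000 cells ran from 1.13 RPKM in Rsrc1 to 2.81 RPKM in Gnas. How reads shared with similar genes, as in the tubulin and metallothionein families, were assigned is not given in the sources used here.

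At the other end were sites with much H3K27me3 and little H3K4me3. Comp, a cartilage matrix protein gene, had 2, 3.49 and 3.24 RPKM of H3K27me3, 2.69, 4.69 and 1.75 RPKM of H3K4me3 and 0.07 RPKM of RNA. Insm2, a neuroendocrine zinc finger gene, had 2.10, 3.37 and 2.83 RPKM, 2.15, 4.69 and 2.05 RPKM and 0.05 RPKM in the same order. Gcgr (the glucagon receptor, RNA 0.29 RPKM), Vwc2 (0.47 RPKM) and Speer7-ps1 (0.21 RPKM) made up the 5 lowest ratios of H3K4me3 to H3K27me3. Speer7-ps1 belongs to a family of near-identical copies, so its reads are uncertain. The 5 highest ratios were those of Arpc5, Tbc1d9, Mt2, Fgf4 and Fabp3 (a fatty acid binding protein, RNA 7.51 RPKM). All 5 lowest-ratio genes thus read under 1 RPKM of RNA and all 5 highest-ratio genes above 3 RPKM.

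Gene families were described by how many of their plus-strand genes were bivalent, beside 4.81% of all plus-strand genes (534 of 11113). Of all 11113 genes, 793 had H3K27me3 only and 4810 had H3K4me3 only, against which the family counts below are to be read. Developmental transcription factor families had 37 of 236 genes bivalent and another 118 with H3K27me3 only. With signalling families added the counts were 62 of 333 bivalent and 143 with H3K27me3 only. Such genes made up 11.6% of bivalent genes and 18% of the 793 genes with H3K27me3 only. These lists were drawn up with earlier results of these data known, and their counts are a description. All families together covered 108 of the 534 bivalent genes, so most bivalent genes lay outside them.

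**Figure D4:**
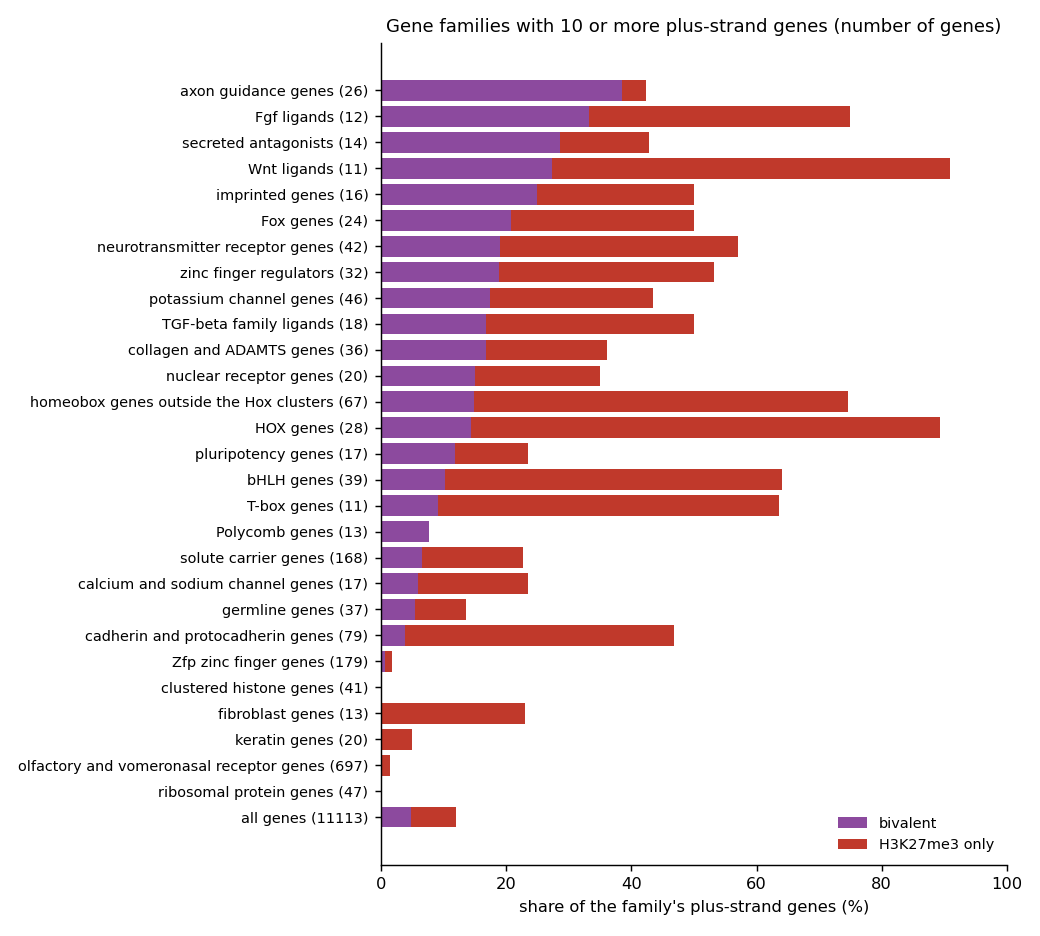
Share of each family's plus-strand genes (percent) that were bivalent and that had H3K27me3 only, for families with 10 or more plus-strand genes, whose number stands in brackets. Axon guidance genes have the largest bivalent share (38.5%), while HOX, other homeobox and bHLH genes are mostly H3K27me3 only; all genes stand at the bottom (4.81% bivalent).

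Axon guidance genes, whose products steer growing nerve fibres, had the largest bivalent share among families of 10 or more genes, with 10 of 26 (38.5%) and 1 with H3K27me3 only. Ntn4, a netrin, had H3K27me3 of 1.09, 1.88 and 2.19 RPKM, H3K4me3 of 4.31, 8.44 and 3.19 RPKM and RNA of 0.27 RPKM. Nrp2, a semaphorin receptor, had 0.84, 1.92 and 1.79 RPKM of H3K27me3 and 10.8, 18.8 and 5.36 RPKM of H3K4me3, and its RNA was the highest of the family, 15.8 RPKM. Sema7a, a membrane-anchored semaphorin, read 0.82 RPKM of RNA. The others were Nrp1, Plxna2, Sema3c, Sema5b, Slit3, Unc5a and Unc5c, with RNA between 0 (Unc5a) and 10.7 RPKM (Sema5b).

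HOX genes, which pattern the body axis, showed the reverse split, with 4 of 28 bivalent and 21 with H3K27me3 only. Hoxb9 had 1.78, 3.06 and 2.86 RPKM of H3K27me3, 2.69, 5.63 and 2.71 RPKM of H3K4me3 and 0.06 RPKM of RNA. Hoxd8 had 1.00, 1.54 and 1.90 RPKM of H3K27me3 and 3.77, 14.1 and 3.31 RPKM of H3K4me3, and its RNA was listed at 0. Hoxd1 and Hoxc13 read 0.03 and 0.10 RPKM of RNA. Among the 67 homeobox genes outside the clusters 10 were bivalent and 40 had H3K27me3 only. Among the bivalent ones were Dlx1, En1, En2, Irx4, Irx5, Lmx1a, Prrx2 and Tshz3, regulators of forebrain, midbrain, heart, limb and other organs. Lmx1a, a factor of midbrain dopaminergic neurons, had the most H3K27me3 of them (1.90, 3.32 and 2.91 RPKM), with H3K4me3 of 4.31, 5.63 and 3.49 RPKM and RNA of 0.35 RPKM. En2, a midbrain-hindbrain factor, had the most RNA, 1.43 RPKM.

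Fox genes, forkhead factors of many lineages, were split between classes, with 5 of 24 bivalent, 7 with H3K27me3 only and 8 with H3K4me3 only. Foxc2, a mesoderm and vessel factor, had the most H3K27me3 of them at 100000 cells, with 1.67, 3.07 and 3.32 RPKM over the 3 libraries, with 6.46, 15.9 and 1.93 RPKM of H3K4me3 and 0.08 RPKM of RNA. Foxd3, a neural crest factor also used in early embryonic cells, had RNA of 4.78 RPKM beside H3K27me3 of 1.18, 2.07 and 2.33 RPKM. Foxi3, Foxc1 and Foxl2 read 0.25, 0.02 and 0.02 RPKM of RNA. Of 39 bHLH genes 4 were bivalent and 21 had H3K27me3 only. Npas2, a circadian clock factor, had 1.94, 3.89 and 3.43 RPKM of H3K27me3 and 12.4, 19.7 and 5 RPKM of H3K4me3 at RNA of 0.42 RPKM, while Id1, an inhibitor of bHLH factors that responds to BMP, had RNA of 12.8 RPKM at H3K27me3 of 0.55, 1.44 and 1.38 RPKM. Hes5, a Notch target, and Atoh7, a retinal factor, read 0.28 RPKM and 0.

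Other regulator families held a few bivalent genes each. Sox9 (cartilage and testis factor) and Sox30 were the 2 of 6 Sox genes, with RNA of 0.02 and 0.37 RPKM. Eomes, a mesendoderm and trophoblast T-box factor, was the 1 of 11 T-box genes, with 1.08, 2.46 and 2.05 RPKM of H3K27me3, 11.3, 21.6 and 4.64 RPKM of H3K4me3 and 0.38 RPKM of RNA. Pax6, an eye and forebrain factor, was the 1 of 4 Pax genes, with 0.63 RPKM of RNA, and Tcfap2c the 1 of 3 AP-2 genes. Zinc finger regulators had 6 of 32 bivalent, namely Ikzf1, Insm2, Wt1, Glis1, Klf15 and Prdm6, with RNA from 0.05 RPKM (Insm2) to 3.03 RPKM (Klf15). Nuclear receptors had 3 of 20, namely Ppara, Thrb and Nr3c2 (RNA of 0.12, 0.05 and 3.55 RPKM), and 10 with H3K4me3 only.

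Ligands and their antagonists were often bivalent. Wnt ligands had 3 of 11 bivalent and 7 with H3K27me3 only. Wnt9a had 1.30, 2.46 and 2.44 RPKM of H3K27me3 and 10.2, 20.6 and 6.08 RPKM of H3K4me3, Wnt10a had 1.27, 2.67 and 2.45 RPKM and 2.69, 5.63 and 2.71 RPKM, and Wnt6, next to Wnt10a on chromosome 1, had RNA of 0.47 RPKM. None of these Wnt genes reached 0.5 RPKM of RNA, since Wnt9a read 0.49 and Wnt10a 0.24 RPKM. Fgf ligands had 4 of 12 bivalent. Fgf4, a growth factor made by stem cells, had 0.54, 1.11 and 1.17 RPKM of H3K27me3, 30.7, 52.5 and 7.77 RPKM of H3K4me3 and 21.1 RPKM of RNA. Fgf5, known as a marker of the later epiblast, had more H3K27me3 (0.76, 2.14 and 2.26 RPKM), less H3K4me3 (2.15, 8.44 and 2.11 RPKM) and RNA listed at 0. Fgf2 and Fgf16 read 0.32 RPKM and 0.

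TGF-beta family ligands had 3 of 18 bivalent (Gdf6, Gdf1 and Bmp8b, RNA of 0.03, 0.10 and 0.76 RPKM). Secreted antagonists had 4 of 14, which were Fstl4, Sfrp1, Bmper and the BMP antagonist Chrd, with RNA of 1.69, 9.84, 0.08 and 0.23 RPKM. Of 8 Hedgehog and Notch pathway genes Lfng was bivalent (0.63 RPKM of RNA). Of 8 Eph and ephrin genes 0 were bivalent and 7 had H3K4me3 only.

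Potassium channel genes had 8 of 46 bivalent (median RNA of these 0.335 RPKM), with Kcnj10, an inward rectifier of glia, highest in H3K27me3 (2.33, 3.27 and 2.58 RPKM, RNA 0.81 RPKM) and Kcnd2 highest in RNA (2.50 RPKM). Neurotransmitter receptor genes had 8 of 42 bivalent (median RNA of these 0.065 RPKM) and 16 with H3K27me3 only. Grm6, a glutamate receptor of the retina, had 1.39, 2.80 and 2.76 RPKM of H3K27me3 and RNA of 0.01 RPKM. Grik3, a kainate receptor subunit, had H3K4me3 of 15.6, 32.8 and 4.40 RPKM and the highest RNA of the bivalent genes of that family, 5.81 RPKM. Cadherin and protocadherin genes had 3 of 79 bivalent and 34 with H3K27me3 only. Of those 3, Cdh4, an adhesion gene, read 8.99 RPKM of RNA, and the window near Pcdhac2 carried the symbol of Pcdha11, another gene of the same cluster.

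Collagen and ADAMTS genes had 6 of 36 bivalent, and RNA ran from 0 in Col4a3 to 1.45 RPKM in Adamts19. Solute carrier genes had 11 of 168 bivalent, close to the 4.81% of all genes. Slc6a2, the noradrenaline transporter, had 1.95, 3.42 and 2.82 RPKM of H3K27me3 at RNA of 0.04 RPKM, and Slc16a3, a lactate transporter, had 0.74, 1.32 and 1.06 RPKM at RNA of 11.9 RPKM. Of 697 olfactory and vomeronasal receptor genes, 47 ribosomal protein genes, 41 clustered histone genes and 20 keratin genes 0 were bivalent. Of 179 Zfp zinc finger genes 1 was, Zfp697.

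Most pluripotency genes had H3K4me3 only, and 11.8% were bivalent, against 4.81% of all genes. Of 17 plus-strand ones, Esrrb and Fgf4 were bivalent and 11 had H3K4me3 only, among them Nanog (0.28, 0.30 and 0.20 RPKM of H3K27me3), Pou5f1 (0.14, 0.04 and 0.09 RPKM) and Sox2 (0.27, 0.68 and 0.71 RPKM). Tcfcp2l1 passed the H3K27me3 threshold in 1 library (1.14 RPKM at 10000 cells, 0.97 RPKM at 100000 cells) at RNA of 20.3 RPKM. Lefty1 and Lefty2, secreted Nodal antagonists, had H3K27me3 without a qualifying window and RNA of 1.43 and 5.35 RPKM. Of 13 Polycomb genes 1 (7.69%) was bivalent, Cbx2, a subunit of Polycomb repressive complex 1. Cbx2 had 0.76, 1.70 and 1.59 RPKM of H3K27me3, 19.9, 43.1 and 8.31 RPKM of H3K4me3 and 4.59 RPKM of RNA. Of 3 plus-strand CDK inhibitor genes 0 were bivalent. Germline genes had 2 of 37 bivalent, the testis factor Dmrt1 (19.98 RPKM of RNA) and the meiotic cohesin gene Stag3 (3.59 RPKM).

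Imprinted genes, expressed from 1 parental allele, had 4 of 16 bivalent: Gnas, Magel2, Nnat and Plagl1. Another 4 (Dlk1, Kcnq1, Rasgrf1 and Slc22a18) had H3K27me3 only. Gnas, the gene of the stimulatory G protein alpha subunit, showed a different class at each of 4 start sites on chromosome 2. The bivalent one (174153409) had 1.76, 2.97 and 2.81 RPKM of H3K27me3 and 10.8, 17.8 and 4.22 RPKM of H3K4me3. The one at 174155585 had 8.62, 26.3 and 5.96 RPKM of H3K4me3 and 0.30, 0.46 and 0.32 RPKM of H3K27me3. The one at 174123361 had 0.71, 1.95 and 2.06 RPKM of H3K27me3 and 0, 0 and 0.84 RPKM of H3K4me3, and the one at 174109825 met neither threshold. Whether both marks sat on 1 allele or on different ones cannot be told apart from these values.

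In other genes too, start sites of 1 gene differed in class. Of the 534 genes 52 had more than 1 listed start position, and 36 had another start site over 2000 bp away that was not bivalent, of which 8 had H3K4me3 only and 4 H3K27me3 only. Arhgef7, a Rac exchange factor, was bivalent at 11728105 on chromosome 8 (0.84, 2.33 and 1.71 RPKM of H3K27me3 and 15.1, 39.4 and 9.27 RPKM of H3K4me3). Its start site at 11758330 kept the H3K4me3 (11.9, 32.8 and 7.77 RPKM) with 0.10, 0.20 and 0.16 RPKM of H3K27me3. Dlgap4 on chromosome 2 showed the same arrangement, with 0.46, 1.18 and 1.03 RPKM of H3K27me3 at 156439441 and 0.29, 0.14 and 0.38 RPKM at 156547009, at H3K4me3 of 19.4, 37.5 and 9.52 RPKM and 15.6, 47.8 and 6.44 RPKM. In Bdnf, a neurotrophin gene, the other start sites had H3K27me3 only. These 3 genes were chosen as examples after their values were seen.

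Neighbouring genes could also share a window. For 53 of the 624 rows the qualifying window carried another symbol, and 32.1% of those rows had RNA of 1 RPKM or more (19.9 to 46.3%), against 38.9% of the rows with a window of their own symbol (34.9 to 43.0%). In 6 divergent pairs a minus-strand start lay within 2000 bp of a plus-strand one and both were members. Cbln1 (a cerebellin gene, minus strand) and Gm2694 (plus strand) start 225 bp apart on chromosome 8 and share a window with 30.9 RPKM of H3K4me3 at 10000 cells. Their RNA differed widely, at 1.06 RPKM for Cbln1 and 86.4 RPKM for Gm2694. Foxd2 and 9130206I24Rik, 393 bp apart, were both low, at 0.04 and 0.16 RPKM.

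H3K27me3 at bivalent start sites was weaker in the library from 1000 cells. The median difference from 100000 cells was -0.73 on the log2(RPKM + 0.1) scale, and 616 of 624 sites were lower. A difference of 2-fold or more downward was seen at 133 sites (21.3%), against 16.2% of sites with H3K27me3 only, where the median difference was -0.67, and 5.76% of all plus-strand rows. The sites were chosen for high values at 100000 cells, which were part of this contrast, so nothing is read from that gap. The order of the sites was largely kept, with a Spearman's rho of 0.718 between 1000 and 100000 cells and 0.881 between 10000 and 100000 cells over 534 genes. The largest falls were those of Agbl3 (0.33 RPKM at 1000 cells, 1.88 RPKM at 100000 cells), Cnr1 (0.25 and 1.48 RPKM), Camk2n1 (0.29 and 1.51 RPKM), Hspa2 (0.29 and 1.51 RPKM) and Chsy3 (0.22 and 1.01 RPKM). Speer7-ps1 (5.44 and 4.09 RPKM), Ugt1a1 (2.80 and 2.19 RPKM), 4933403G14Rik (1.29 and 1.10 RPKM), Itgb3 (1.55 and 1.33 RPKM) and Stxbp2 (1.37 and 1.21 RPKM) were the largest of the 8 that were higher at 1000 cells.

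H3K9me3, the mark of constitutive heterochromatin, was the measure that took no part in the choice and had replicates. The bins cover only part of the genome, and 76 of the 534 bivalent genes had a bin within 1 kb of the start site. The values below describe those genes and not the whole class. Bins within 1 kb of a plus-strand bivalent start site (77 bins) averaged 0.356 ± 0.0158 RPKM of H3K9me3 at 1000 cells (SD, n = 3 libraries), against 0.426 ± 0.00643 RPKM of panH3 (SD, n = 2 libraries). With limma on log2(RPKM + 0.1) and a Benjamini-Hochberg adjusted p under 0.05, H3K9me3 was lower than panH3 in 19 of these 77 bins (24.7%) and higher in 6 (7.79%). Over all 93575 bins tested 24.7% were lower and 15.2% higher. The share of lower bins was therefore that of the whole table. It lay under that of bins near any listed start site, where 1756 of 3080 (57.0%) were lower and 5.06% higher. Bins near start sites with neither mark by the rule had 36.9% lower and 8.37% higher. Without panH3 library a, 7 of the 77 bins were lower and 2 higher, and without panH3 library b, 8 were lower and 4 higher. Over the bins of all 792 members, 27 of 90 (30.0%) were lower and 6 (6.67%) higher.

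Start sites with H3K4me3 only stood apart, with 627 of 704 bins lower (89.1%) and 5 higher, at 0.12 ± 0.00614 RPKM of H3K9me3 (SD, n = 3) against 0.436 ± 0.00307 RPKM of panH3 (SD, n = 2). At start sites with H3K27me3 only 23 of 113 bins were lower (20.4%) and 9 higher, at 0.421 ± 0.012 RPKM of H3K9me3 against 0.442 ± 0.00188 RPKM of panH3. The median log2 difference of H3K9me3 from panH3 was -0.37 in bivalent bins, -0.10 with H3K27me3 only, -1.46 with H3K4me3 only and -0.10 over all bins. Differences between classes were not tested. When each library was centred on its median, the median over all bins was 0.08, against -0.10 uncentred, the split over all bins turned to 20312 higher and 18564 lower, and over all members 17 bins were lower and 9 higher.

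**Figure D5:**
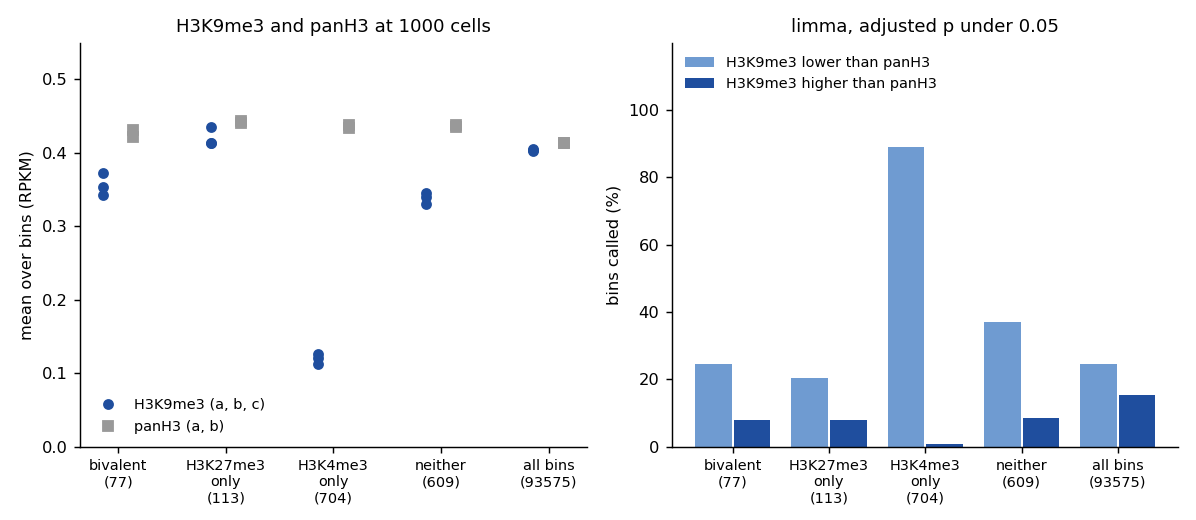
Left, mean H3K9me3 (circles, libraries a, b and c) and panH3 (squares, libraries a and b) at 1000 cells over 2 kb bins by class of the plus-strand start site nearby, in RPKM; right, share of bins tested (number in brackets) in which H3K9me3 was lower or higher than panH3. Bivalent bins have 24.7% lower and 7.79% higher, against 89.1% and 0.71% with H3K4me3 only and 24.7% and 15.2% over all bins.

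Single bins within 1 kb of a bivalent start site lay on either side of panH3. Over all members, 47 bins held the start site itself, and of these 12 were lower and 0 higher. The higher bins therefore lay beside the start site. The bin at Eif5a2 (a translation factor gene; chromosome 3, 28678001 to 28680000) had 1.25, 1.43 and 1.45 RPKM of H3K9me3 in libraries a, b and c and 0.37 and 0.30 RPKM of panH3 in a and b. Its log2 difference was 1.77 ± 0.17 (SE, adjusted p = 2.71e-08 by limma), and the libraries of both did not overlap. This bin, with H3K27me3 of 4.30 RPKM at 100000 cells, ended before the listed start site at 28680233. Rbmxl2, a testis RNA-binding protein gene, followed with 1.17, 1.29 and 0.99 RPKM of H3K9me3 and 0.52 and 0.58 RPKM of panH3 (log2 difference 0.94 ± 0.17 SE, adjusted p = 8.74e-05 by limma). Me3, Ugt1a1 and 9930014A18Rik were the next, with log2 differences of 0.77, 0.55 and 0.53. Furthest below was the bin at Il28ra, an interferon lambda receptor gene, with 0.17, 0.07 and 0.13 RPKM of H3K9me3 and 0.43 and 0.56 RPKM of panH3 (log2 difference -1.43 ± 0.27 SE, adjusted p = 0.000106 by limma). The Il28ra bin held only 0.43 RPKM of H3K27me3 at 100000 cells. Itpkb (-1.34), Cldn7 (-1.23), Slc16a3 (-1.19) and Slc36a1 (-1.13) were next. Among the bivalent bins, median RNA of the gene was 1.03 RPKM in the 6 higher, 0.78 RPKM in the 19 lower and 0.635 RPKM in the 52 not called.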

How the data were processed

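Histone marks and RNA of TT2 cells were analysed in 15 libraries, with groups set by mark and cell number. Per the file headers, the authors deposited RPKM values, 1 column per library, in 98085 bins of 2 kb, in 74866 H3K4me3 windows of 1 kb, and as H3K27me3 within 1 kb of listed start sites and RNA over exons for 28373 transcripts. They also deposited exon and gene lengths in other columns. BWA, SAMtools and mm9 come from the submitters' processing notes, without versions; no source used here gives the counting tool or filters. The panH3 columns carry no unit and were taken as RPKM. 2 columns of another series were not used.

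ChIP values in windows of equal length were whole multiples of 1 read, to 2 decimals, in 100% of the values examined, which gave depths of 13.0 to 45.5 M reads in the bins and, for H3K4me3, of 1.86, 1.07 and 16.7 M reads from 5000, 10000 and 100000 cells. Depth of the RNA library is unknown.

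The members, families, markers and rules were chosen with earlier results of these data known. Named genes were those with the highest geometric mean of both marks (10), the highest RNA (12), extreme ratios of the marks, the largest differences between 1000 and 100000 cells, and those nearest the threshold (5 each way), up to 4 per family, 5 called bins each way, and all genes of 4 families. They were taken from plus-strand rows, a restriction adopted after the deposited values showed where H3K27me3 was measured. Where rows share a symbol, the row with the highest H3K27me3 stands for the gene.

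The 3 H3K9me3 libraries at 1000 cells were set against both panH3 libraries by limma 3.58.1 in R 4.3.3 on log2(RPKM + 0.1), with robust moderation and an intensity trend, two-sided, in bins above 0 in at least 1 library. A fold on that scale understates changes of low bins. Bins were also simulated with real means and depths, an assumed dispersion of 0.02 and 200 changed bins. There 9% of shifts by 1 log2 unit and 80% of shifts by 2 log2 units were called, and 0 of the unchanged bins among 93529. The data had 23158 bins called lower and 14224 higher, so the adjusted threshold was stricter in the simulation. Its shares therefore do not carry over to the data. Shared letters do not pair the libraries (correlation of a minus b deviations between the marks -0.00955, no label). Other comparisons rest on 1 library each and carry no p. Alternatives changed thresholds, distances, rows, pseudocount, filter, centring and libraries. Promoters came from RefSeq (GRCm38.p6), matched by accession for 527 of 534 genes. Python 3.11.15, pandas 2.3.3, scipy 1.17.1 and matplotlib 3.10.9 were used.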

Additional observations from a re-analysis of the deposited data

How the results depend on the processing

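Values here are over all 792 members on both strands. Their number was 1860 with H3K27me3 of 0.5 RPKM or more and 227 with 2 RPKM, 437 with H3K4me3 of 8 and 4 RPKM, 383 with H3K27me3 of 1 RPKM at 1000 cells as well and 277 with H3K4me3 of 4 RPKM at 100000 cells as well. The share with RNA of 1 RPKM or more (37.1%) was 52.6% with H3K27me3 of 0.5 RPKM, 28.2% with 2 RPKM, 32.1% with H3K4me3 of 2 and 1 RPKM and 47.6% with 8 and 4 RPKM, and with an RNA level of 0.5 or 2 RPKM it was 53.4% or 22.1%. The share with H3K27me3 of 1 RPKM at 1000 cells (48.4%) was 21.9%, 90.7% and 44.6% with H3K27me3 of 0.5 RPKM, of 2 RPKM and with H3K4me3 of 8 and 4 RPKM. The share with H3K4me3 of 4 RPKM at 100000 cells (35.0%) was 42.2% with H3K27me3 of 0.5 RPKM, and 25.9% and 57.4% with H3K4me3 of 2 and 1 or 8 and 4 RPKM. Alternatives added after seeing the data were plus-strand rows only, division by panH3 on the autosomes and leaving out chromosomes 1, 8 and 11. With plus-strand rows only, 48.4% became 43.8%. Division gave 35.5% for H3K27me3 at 1000 cells and 25.9% for H3K4me3 at 100000 cells. Without chromosomes 1, 8 and 11 there were 498 members, those shares were 38% and 27.7%, and 14 bins were lower in H3K9me3. Of 90 bins, 27 were lower and 6 higher in H3K9me3. The lower ones numbered 17 after centring, 16 with no filter on low values, 12 in bins that hold the start site and 4 with H3K27me3 of 2 RPKM; the higher ones numbered 0 and 3 in the last 2 of these settings. Leaving out 1 library at a time gave 11 to 34 lower and 2 to 6 higher, with the lowest counts without panH3 a (11 and 2) and panH3 b (13 and 4); panH3 was then a lone library assumed to vary like H3K9me3. With a replicate block on the shared letters, 23 were lower and 6 higher. With voom weights on recovered reads, 37 were lower and 8 higher. The relation to all bins turned between settings: 41.1% of member bins against 27.4% of all bins were lower with voom, 37.8% against 27.7% without H3K9me3 a, and 12.2% against 16.6% without panH3 a. No other alternative moved a share beyond its interval or a count by over 1.5 times. The cause was not tested. Depth limits the H3K4me3 thresholds, which 5 and 4 reads reach.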
